A study of Rattus norvegicus with 9 samples.

Results

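The genes described here encode the machinery of pre-mRNA splicing. They are the 205 of 32623 genes in the deposited table whose biological process annotation holds the Gene Ontology term for mRNA splicing through the spliceosome, and Hspa8, which was to be left out, did not carry that term. They were followed in 9 RNA-seq libraries of wild-type rat primary aortic smooth muscle cells, in 3 groups of 3 libraries. PDGF-BB+PTUPB cells received 0.5 µM PTUPB, an inhibitor of cyclooxygenase-2 and soluble epoxide hydrolase, 2 h before PDGF-BB, the B-chain dimer of platelet-derived growth factor, which drives smooth muscle cells to divide. PDGF-BB cells received PDGF-BB for 24 h without PTUPB, and Control cells received DMSO alone. The PDGF-BB dose is 10 ng/mL in the sample labels and 20 ng/mL in the series design. Cells of all groups were at passages 4 to 8, had been grown in 20% serum, were kept 12 h without serum and were treated in 2% serum. No library analysed here came from cells given PTUPB without PDGF-BB. Whether the 3 libraries of each group stem from different cultures or rats is not stated, so p-values reflect only how these libraries vary, and that variation may be technical.

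The spliceosome assembles anew on each intron from 5 small nuclear ribonucleoproteins (snRNPs), particles of a short RNA and its proteins. U1 marks the 5′ splice site, U2 marks the branch site, and the U4/U6.U5 tri-snRNP brings in the RNAs of the catalytic centre, while the Prp19 complex and a set of helicases drive the rearrangements. SR proteins and heterogeneous nuclear ribonucleoproteins (hnRNPs) bind the transcript and favour or repress nearby splice sites. In vascular smooth muscle, the splicing of contractile protein genes differs between contractile and proliferating cells, and PTBP1 is known to repress muscle exons. Splicing itself was not measured here. Each value is a level of the mRNA that encodes a splicing factor.

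Of the 205 genes, 145 had 1 FPKM or more in 3 or more libraries and were tested. The other 60 were not tested, and 27 of them had no count in any library. Of the 60, 45 were identifiers without a gene name. The 205 identifiers carry 202 distinct symbols, because Crnkl1, Lsm5 and Ncbp2 are each listed under 2 identifiers, among which reads could have been divided. Counts summed to between 12729187 and 16911050 per library over all genes. Smooth muscle markers were abundant, with 9 of 10 tested and the sum of the list at 5958 to 6578 CPM in PDGF-BB+PTUPB cells, 5676 to 5816 CPM in PDGF-BB cells and 5291 to 7893 CPM in Control cells, while Des was near 0. Of these 9, 4 fell with PDGF-BB (to a log2 fold change of -1.04) and 1 rose with PTUPB. Of 8 endothelial markers only Egfl7 was tested and Cdh5, Emcn, Kdr and Tie1 had no count, with a sum of 23.7 to 27.4 CPM in PDGF-BB+PTUPB cells, 19.5 to 21 CPM in PDGF-BB cells and 19.9 to 20.2 CPM in Control cells. Of 8 macrophage markers only Cd14 and Cd68 were tested and Ptprc and Tyrobp had no count, with a sum of 35.3 to 36.8 CPM, 26.4 to 29.2 CPM and 26.7 to 39.5 CPM in the same order of groups. Egfl7 and 1 of these macrophage markers rose with PTUPB. Adventitial fibroblast markers, which cultured smooth muscle can also express, moved between the groups: 7 of 8 were tested, 5 fell with PDGF-BB and 5 rose with PTUPB, and they summed to 3627 to 4317 CPM in PDGF-BB+PTUPB cells, 2069 to 2918 CPM in PDGF-BB cells and 4070 to 5435 CPM in Control cells. Their part in the results below was not tested. Across the 145 tested genes, the deviation of each library from its group mean was correlated with exonic length. The Spearman rho was 0.454, -0.350 and -0.236 in PDGF-BB+PTUPB replicates 1 to 3. It was 0.276, 0.343 and -0.444 in PDGF-BB replicates and 0.395, -0.499 and 0.199 in Control replicates. Deviations from a mean of 3 libraries sum to 0 for each gene, so 1 sign opposite to the other 2 is nearly forced. Across all 11197 genes tested, rho was 0.144, -0.027 and -0.129 in PDGF-BB+PTUPB replicates 1 to 3. In PDGF-BB replicates it was 0.204, 0.356 and -0.383, and in Control replicates 0.353, -0.392 and 0.163. Results are also given without single libraries where that changes them, and without PDGF-BB replicate 3 and Control replicate 2 together.

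Promoter sequences are shown for the 4 named genes with the largest rises under PDGF-BB, Snrpa, Ppih, Hnrnpa1 and Lsm5. They were chosen by the size of the rise, and their start regions share no single motif of those searched. Each sequence is the stretch of 250 bases before the start of the gene in RefSeq (rat build GRCr8), 5′ to 3′ on the strand of the gene. They lie at chr1:91618043-91618292, minus strand, chr5:138209581-138209830, minus strand, chr7:136253868-136254117, plus strand and chr4:87284477-87284726, minus strand. Capitals mark matches, on either strand, to any of 7 motifs searched, the CCAAT box, the ETS site CCGGAAGT, the E-box CACGTG, the E2F sites TTTCCCGC and TTTGGCGC, the NRF1 site core CGCATGCG and the TATA box TATAAA.
Snrpa: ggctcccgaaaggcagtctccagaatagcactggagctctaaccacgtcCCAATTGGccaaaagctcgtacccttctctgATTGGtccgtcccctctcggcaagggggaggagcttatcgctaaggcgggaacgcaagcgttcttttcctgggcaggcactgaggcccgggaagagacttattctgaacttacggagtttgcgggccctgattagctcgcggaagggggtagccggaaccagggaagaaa
Ppih: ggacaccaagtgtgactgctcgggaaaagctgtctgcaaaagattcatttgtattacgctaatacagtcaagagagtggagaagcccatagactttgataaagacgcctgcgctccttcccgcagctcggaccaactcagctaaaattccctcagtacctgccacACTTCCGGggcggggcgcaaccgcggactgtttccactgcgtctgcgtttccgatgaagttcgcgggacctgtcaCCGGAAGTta
Hnrnpa1: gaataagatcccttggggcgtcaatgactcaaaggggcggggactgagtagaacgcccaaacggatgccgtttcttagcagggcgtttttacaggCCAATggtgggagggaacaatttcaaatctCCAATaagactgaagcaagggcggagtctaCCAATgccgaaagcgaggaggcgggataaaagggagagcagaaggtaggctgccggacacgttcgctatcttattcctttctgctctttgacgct
Lsm5: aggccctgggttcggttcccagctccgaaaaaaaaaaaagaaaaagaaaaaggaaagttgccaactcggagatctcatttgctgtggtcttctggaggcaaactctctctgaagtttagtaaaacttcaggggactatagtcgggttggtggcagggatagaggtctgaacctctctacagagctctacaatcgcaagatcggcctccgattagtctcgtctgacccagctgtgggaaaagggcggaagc

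The CCAAT box was more frequent in the promoters of the splicing genes that rose than in those of the other sets, a description without a test. Hnrnpa1 holds 3 copies of CCAAT in the forward direction and Snrpa holds 1 forward and 2 reverse copies, a forward and a reverse copy overlapping. Ppih holds the ETS site once on each strand, and Lsm5 holds none of the 7 motifs. RefSeq promoters were matched for 118 of the 144 distinct symbols tested. Among those whose gene rose with PDGF-BB, 26 of 43 promoters (60.5%) held CCAAT, against 24 of 74 (32.4%) for the genes that were not called, 36.2% for all genes tested and 34.3% of all 27457 promoters of the same length. The ETS site was in 4.65% of the promoters of genes that rose, 18.9% of those not called, 7.67% for all genes tested and 3.29% of all promoters. In the same order of sets, the E-box was in 2.33%, 5.41%, 8.46% and 5.79%, an E2F site of either form in 4.65%, 4.05%, 2.71% and 1.26%, and the TATA box in 6.98%, 5.41%, 5.89% and 13.1%. The NRF1 site core was in 4.65% of the promoters of genes that rose, 13.5% of those not called, 3.67% for all genes tested and 1.63% of all promoters. A match is a run of letters and no evidence of a factor at that place.

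Many splicing genes rose with PDGF-BB and few fell. Of the 145 tested, 52 rose (35.9%) and 3 fell (2.07%) against Control at an edgeR adjusted p under 0.05, where 17.3% of all 11197 genes tested rose and 15.8% fell. Their log2 fold changes ran from -0.54 to 1.86 with a median of 0.19, beside a median of -0.02 over all genes. The 3 libraries of each group did not overlap for 68 of the 145, where this held for 44.6% of all genes. The genes that fell were Srrm2, Zrsr1 and Ppip5k1, and none of these calls was kept by every alternative: the count was 0 without PDGF-BB replicate 3, without Control replicate 3 and without any of the PDGF-BB+PTUPB libraries, which share the estimate of spread, and 1 without PDGF-BB replicate 1 or 2. Without Control replicate 1 it was 2, of which Zrsr1 was one of the 3 and Srsf5 was added. The count that rose was 38 to 57 with 1 library left out and 55 with PDGF-BB replicate 3 and Control replicate 2 both left out.

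With PTUPB before PDGF-BB a part of the splicing genes fell, and 102 of the 145 tested were not called. Against PDGF-BB alone, 43 of 145 (29.7%) fell and 0 rose, where 10% of all genes tested fell and 8.28% rose. At an unadjusted p under 0.05, 59 were lower and 3 higher, and the count that rose was 1 with DESeq2, 0 with limma on log2(FPKM + 1), 1 when Control replicate 2 was left out and 2 when PDGF-BB replicate 3 was left out as well. The median log2 fold change was -0.20, with a range of -1.28 to 0.43 and an all-gene median of 0.01. The groups did not overlap for 74 of the 145, and for 40.7% of all genes. The count depended on single libraries: 21, 20 and 26 genes fell without PDGF-BB+PTUPB replicates 1, 2 and 3. Both comparisons share the 3 PDGF-BB libraries.

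In PDGF-BB+PTUPB cells against Control a single splicing gene was called. Lsm3 was higher (log2 fold change 0.67 ± 0.13 SE, edgeR adjusted p = 0.0273) and 0 of 145 were lower, where 1.89% of all genes were higher and 0.313% lower, 2.21% in either direction. The median was 0.02. At an unadjusted p under 0.05, 12 were higher and 1 lower, DESeq2 called 4 higher and 0 lower, and limma called 1 higher and 0 lower. The libraries of the groups did not overlap for 21 of the 145, and for 21.5% of all genes. The call of Lsm3 was lost without PDGF-BB+PTUPB replicate 2 or 3, without PDGF-BB replicate 1 and without Control replicate 1 or 3, with adjusted p-values from 0.00142 to 0.143 over all alternatives. With Control replicate 2 left out, 4 were higher and 1 lower, and with PDGF-BB replicate 3 left out as well 11 were higher and 4 lower.

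Summed over all 205 genes, counts reached 9112, 9051 and 9259 CPM in PDGF-BB+PTUPB replicates 1 to 3, 10790, 10890 and 10939 CPM in PDGF-BB replicates and 9280, 9077 and 9176 CPM in Control replicates. The PDGF-BB libraries were above all others, and those of the other groups overlapped. Proliferation genes were also highest with PDGF-BB. Their sums stayed above Control in PDGF-BB+PTUPB cells, where those of all 205 splicing genes did not. Among the splicing classes, the Sm and LSm sums were also above Control in these cells, at 391 to 422 CPM against 325 to 390 CPM. The hnRNP sums of these groups overlapped. In PDGF-BB+PTUPB cells against Control, 4 of 22 S phase genes and 17 of 23 G2/M phase genes tested were called higher, and 0 lower. Of 22 S phase genes tested 20 rose with PDGF-BB, and their list of 23 summed to 577 to 651 CPM in PDGF-BB+PTUPB cells, 976 to 1080 CPM in PDGF-BB cells and 368 to 504 CPM in Control cells. All 23 G2/M phase genes rose with PDGF-BB, and their sum was 775 to 989 CPM, 1407 to 2175 CPM and 188 to 374 CPM in the same order of groups. PDGF-BB replicate 3 and Control replicate 2 had the lowest G2/M phase sums of their groups, 1407 and 188 CPM. Adventitial fibroblast markers summed to 2069 CPM in the first, the lowest of its group, and 5435 CPM in the other, the highest of its group. How far results without these libraries reflect length, the cell cycle or these markers was not tested. In bulk libraries, fewer cells in the cycle and less RNA per cell cannot be told apart, and the part of the cell cycle in the results below was not tested.

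**Figure D1:**
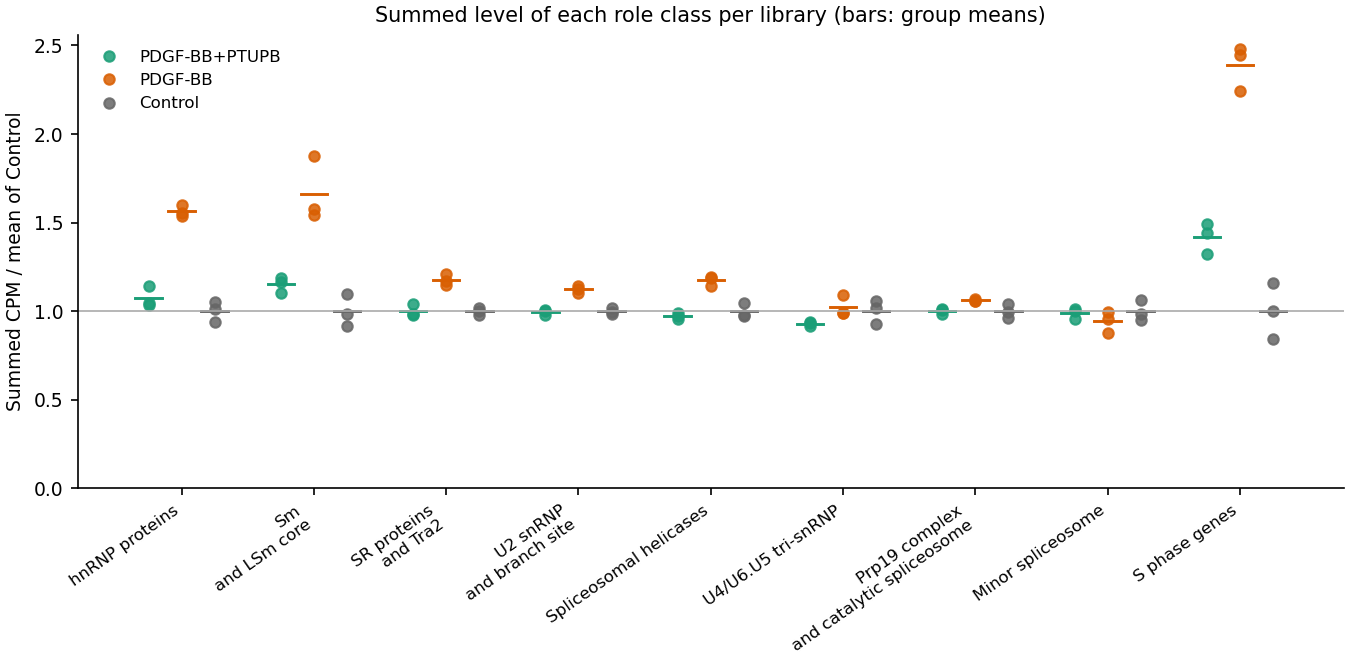
Summed CPM of the genes of 8 splicing classes and of the S phase list in each library, divided by the mean of the Control libraries (points are libraries, bars are group means, linear axis from 0). The hnRNP and Sm and LSm sums of all PDGF-BB libraries lie above those of both other groups, while the minor spliceosome sums overlap between groups.

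The Sm and LSm proteins form the rings around the snRNP RNAs, Sm proteins on U1, U2, U4 and U5 and the LSm2 to LSm8 ring on U6. With PDGF-BB 13 of 15 tested genes rose (86.7%, beside 17.3% of all genes) and 0 fell. The median log2 fold change was 0.76 and all 15 values were above 0, from 0.35 to 1.60. With PTUPB before PDGF-BB 11 of 15 fell (73.3%, beside 10% of all genes) and 0 rose, with a median of -0.56 and all 15 values below 0. In PDGF-BB+PTUPB cells against Control all 15 values were above 0, from 0.06 to 0.67 with a median of 0.20, and 1 was called. The class summed to 391, 414 and 422 CPM in PDGF-BB+PTUPB libraries, 560, 547 and 665 CPM in PDGF-BB libraries and 325, 390 and 350 CPM in Control libraries. PDGF-BB replicate 3 and Control replicate 2, in which long genes read low against the rest of the group, were the highest of their groups. The class median under PDGF-BB was 0.64 without PDGF-BB replicate 3, 0.88 without Control replicate 2 and 0.83 without both.

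Lsm5, a member of the U6 ring, reached a TMM-scaled FPKM of 14.4, 16.9 and 18.8 in PDGF-BB+PTUPB libraries, 32.9, 35.6 and 38.3 in PDGF-BB libraries and 9.56, 14.4 and 10.9 in Control libraries. All PDGF-BB libraries were above the rest, and Control and PDGF-BB+PTUPB libraries met at 14.4. Its log2 fold change was 1.60 ± 0.17 (SE) for PDGF-BB against Control (edgeR adjusted p = 8.59e-05) and -1.09 ± 0.16 for PDGF-BB+PTUPB against PDGF-BB (adjusted p = 0.00235). Lsm4 rose by 1.42 ± 0.13 (adjusted p = 4.1e-05) and fell by 0.92 ± 0.13 with PTUPB (adjusted p = 0.00171). Lsm3, which sits in the U6 ring and also in the cytoplasmic LSm1 to LSm7 ring that promotes mRNA decay, had 19.5, 24.2 and 21.5 in PDGF-BB+PTUPB libraries, 35.2, 31.6 and 40.4 in PDGF-BB libraries and 12.4, 14.2 and 14.3 in Control libraries. Its 3 groups did not overlap in any pairing, and it rose by 1.39 ± 0.13 with PDGF-BB (adjusted p = 5.08e-05) and fell by 0.72 ± 0.13 with PTUPB (adjusted p = 0.00468). Lsm1, which takes the place of LSm8 in that cytoplasmic ring and does not carry the splicing term, went the other way, with a mean of 45.6 ± 2.6 in PDGF-BB+PTUPB cells, 34.1 ± 3.15 in PDGF-BB cells and 46.0 ± 6.09 in Control cells (SD, n = 3 each). It fell with PDGF-BB (log2 fold change -0.43 ± 0.11, adjusted p = 0.0142, 0.0605 at most, with limma and no filter) and rose with PTUPB (0.42 ± 0.11, adjusted p = 0.0286), and the rise was lost without PDGF-BB+PTUPB replicate 1 or 2 or PDGF-BB replicate 1 or 2, at adjusted p-values of up to 0.101.

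Among the Sm proteins, Snrpf averaged a TMM-scaled FPKM of 24.8 ± 1.57 in PDGF-BB+PTUPB cells, 50.8 ± 6.62 in PDGF-BB cells and 19.7 ± 2.52 in Control cells. It rose by 1.37 ± 0.12 (adjusted p = 4.3e-05) and fell by 1.04 ± 0.12 with PTUPB (adjusted p = 0.000939). Snrpg, Snrpd1 and Snrpb rose by 0.76 ± 0.15, 0.64 ± 0.10 and 0.51 ± 0.10 (adjusted p = 0.00347, 0.00114 and 0.00418). With PTUPB Snrpd1 fell by 0.58 ± 0.10 (adjusted p = 0.00468). Snrpg fell by 0.56 ± 0.15 and Snrpb by 0.40 ± 0.10 (adjusted p = 0.0275 and 0.0243), and each of these 2 calls was lost without any of the PDGF-BB+PTUPB libraries, and that of Snrpg also without PDGF-BB replicate 3, with adjusted p-values of up to 0.0935 and 0.0795. Snrpn, an Sm protein that shares its locus with Snurf, rose by 1.30 (adjusted p = 0.00419) while Snurf was not called (0.15, adjusted p = 0.384), and the division of reads between these overlapping genes is uncertain.

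**Figure D2:**
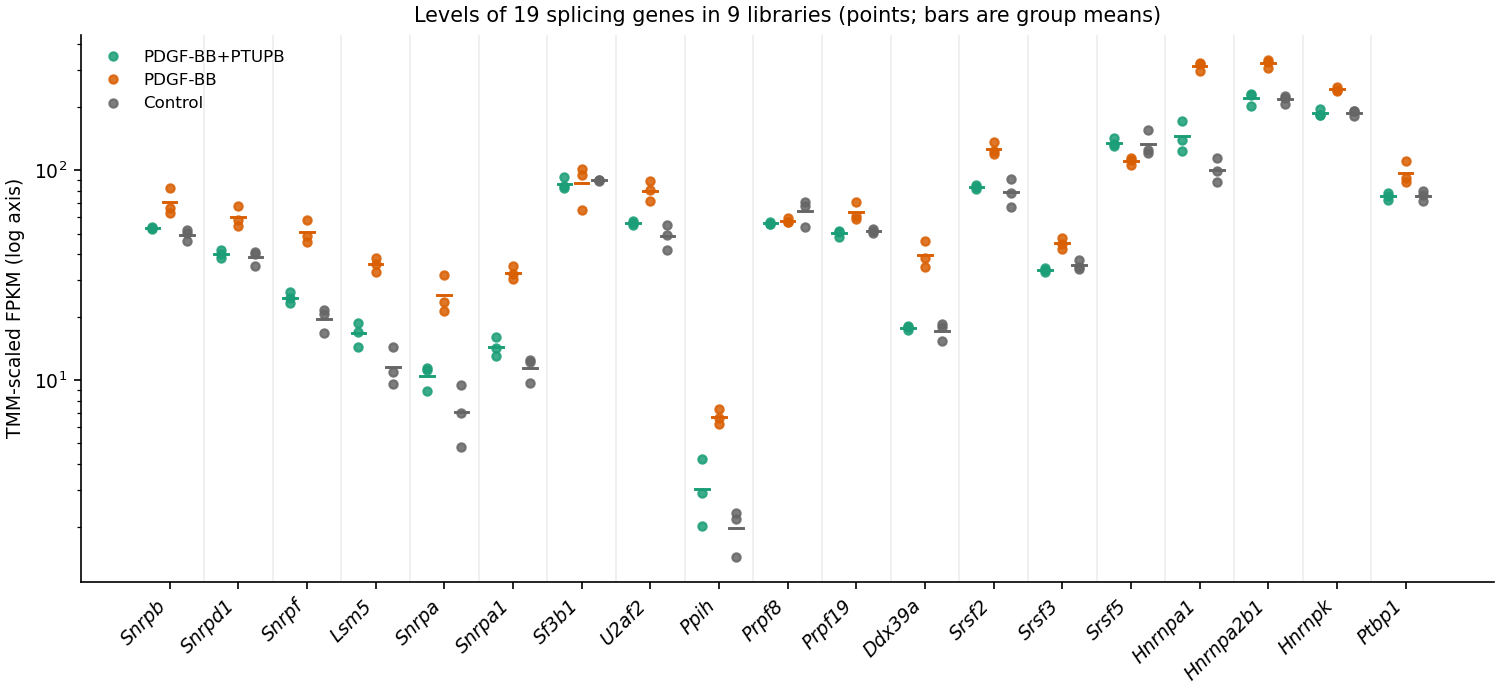
TMM-scaled FPKM of 19 splicing genes in each library (log axis), with PDGF-BB+PTUPB left of PDGF-BB and Control within each gene (points are libraries, bars are group means). PDGF-BB libraries lie above the other groups for Snrpf, Lsm5, Snrpa1 and Hnrnpa1 and below them for Srsf5, while for Sf3b1 2 of them lie above and 1 below all other libraries.

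In U1 only Snrpa was called among the 4 genes tested. Snrpa (ENSRNOG00000001501), the A protein of the U1 particle, which binds a stem-loop of U1 RNA, had a TMM-scaled FPKM of 11.4, 8.87 and 11.2 in PDGF-BB+PTUPB libraries, 21.4, 23.7 and 31.6 in PDGF-BB libraries and 9.46, 4.83 and 6.95 in Control libraries. Its PDGF-BB libraries were above all others, and the other groups overlapped. This was the largest change of any tested splicing gene, 1.86 ± 0.23 with PDGF-BB (edgeR adjusted p = 0.000256) and -1.28 ± 0.23 with PTUPB (adjusted p = 0.00468). Snrnp70, the U1-70K protein, was not called, at 59.0 ± 0.5 in PDGF-BB+PTUPB cells, 63.7 ± 1.66 in PDGF-BB cells and 63.1 ± 2.39 in Control cells (adjusted p = 0.888 for PDGF-BB against Control and 0.257 for PDGF-BB+PTUPB against PDGF-BB). The U1-C gene Snrpc, which lacks the term, rose by 0.53 ± 0.12 (adjusted p = 0.00586) and fell by 0.53 ± 0.12 with PTUPB (adjusted p = 0.0126, lost without PDGF-BB+PTUPB replicate 1 or 2 at up to 0.0576).

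The U2 and branch site class was mixed. Under PDGF-BB 6 of 18 genes rose (33.3%, beside 17.3% of all genes) and 0 fell (median 0.19). Under PTUPB 4 fell (22.2%, beside 10% of all genes) and 0 rose (median -0.16). Snrpa1, the A′ protein of the U2 particle, had 13.0, 14.2 and 16.1 in PDGF-BB+PTUPB libraries, 32.2, 30.2 and 34.9 in PDGF-BB libraries and 12.2, 9.69 and 12.5 in Control libraries. The lowest PDGF-BB+PTUPB library stood just above the highest Control library, and both groups stood far below PDGF-BB. Its log2 fold changes were 1.50 ± 0.12 (adjusted p = 2.56e-05) and -1.17 ± 0.12 (adjusted p = 0.000576). U2af2, the large subunit of the factor that binds the polypyrimidine tract, averaged 56.2 ± 1.29 in PDGF-BB+PTUPB cells, 80.2 ± 8.86 in PDGF-BB cells and 48.7 ± 6.56 in Control cells, rose by 0.72 ± 0.11 (adjusted p = 0.0009) and fell by 0.51 ± 0.11 with PTUPB (adjusted p = 0.0111). The small subunit U2af1, which reads the 3′ splice site, rose by 0.43 ± 0.11 (adjusted p = 0.0155, lost without Control replicate 1 or 3 at up to 0.0578) and fell by 0.39 ± 0.11 (adjusted p = 0.0393, lost when most single libraries were left out, at up to 0.108). Sf3b3 fell by 0.26 ± 0.07 with PTUPB (adjusted p = 0.0284, lost without any PDGF-BB+PTUPB library or PDGF-BB replicate 1 or 3 at up to 0.107). Sf3b1, the subunit of SF3B that clamps the branch site, was not called, with 92.6, 82.5 and 84.2 in PDGF-BB+PTUPB libraries, 95.0, 101 and 64.6 in PDGF-BB libraries and 89.9, 90.4 and 89.2 in Control libraries. Its sign changed with PDGF-BB replicate 3: the log2 fold change against Control was -0.05 with that library and 0.13 without it.

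In the U4/U6.U5 tri-snRNP 5 of 16 genes rose (31.2%, beside 17.3% of all genes) and 0 fell with PDGF-BB (median 0.17). With PTUPB 7 fell (43.8%, beside 10% of all genes) and 0 rose (median -0.24). Ppih (ENSRNOG00000008489), the cyclophilin of the U4/U6 particle, had 2.01, 2.91 and 4.22 in PDGF-BB+PTUPB libraries, 7.30, 6.16 and 6.64 in PDGF-BB libraries and 2.32, 1.44 and 2.18 in Control libraries. It was low in all groups and its PDGF-BB libraries were above the others. It rose by 1.76 ± 0.30 (adjusted p = 0.00161) and fell by 1.14 ± 0.29 with PTUPB (adjusted p = 0.022, lost without PDGF-BB+PTUPB replicate 1 or 2 or PDGF-BB replicate 1 at up to 0.0783). Txnl4a, a small U5 protein, rose by 0.75 ± 0.12 (adjusted p = 0.00124). Eftud2, the U5 GTPase, and Prpf31, which joins U4/U6 to U5, rose by 0.45 ± 0.11 and 0.40 ± 0.09 (adjusted p = 0.00984 and 0.00854). Prpf31 fell by 0.46 ± 0.09 with PTUPB (adjusted p = 0.00919), and the falls of Txnl4a and Eftud2 (0.48 ± 0.12 and 0.43 ± 0.11, adjusted p = 0.0218 and 0.0213) were each lost without any of the PDGF-BB+PTUPB libraries, and that of Txnl4a also without PDGF-BB replicate 3, at up to 0.0854 and 0.0822. The 2 largest proteins of U5 were not called: Prpf8, the scaffold of the catalytic centre, averaged 56.0 ± 0.925 in PDGF-BB+PTUPB cells, 57.5 ± 1.34 in PDGF-BB cells and 64.1 ± 8.95 in Control cells, and Snrnp200, the helicase that unwinds U4 from U6, averaged 30.0 ± 1.08, 31.7 ± 2.32 and 33.9 ± 3.79. With PDGF-BB replicate 3 and Control replicate 2 both left out Snrnp200 was lower with PDGF-BB than in Control (-0.25, adjusted p = 0.00793) and with PTUPB than in Control (-0.27, adjusted p = 0.0128), and without Control replicate 2 Prpf8 was lower with PTUPB than in Control (-0.30, adjusted p = 0.0364). The latter difference stayed uncalled in 18 of the 20 alternatives, with adjusted p-values from 0.00737 to 0.802 over all of them.

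The Prp19 complex and its catalytic partners had medians near 0. Under PDGF-BB 5 of 20 rose (25%, beside 17.3% of all genes) and 0 fell (median 0.02). Under PTUPB 3 fell (15%, beside 10% of all genes) and 0 rose (median -0.04). The classes and the spread within each are drawn in the plot of log2 fold changes by role. Cwc15 rose by 0.52 ± 0.10 (adjusted p = 0.00236), the isomerase Ppil1 by 0.53 ± 0.13 (adjusted p = 0.00932) and Bcas2, a core Prp19 complex protein, by 0.38 ± 0.09 (adjusted p = 0.00881). Prpf19, the ubiquitin ligase of the complex, had 48.2, 51.0 and 51.4 in PDGF-BB+PTUPB libraries, 60.3, 58.6 and 70.8 in PDGF-BB libraries and 50.3, 52.3 and 51.3 in Control libraries. It rose by 0.30 ± 0.08 (adjusted p = 0.0178, lost without Control replicate 1 or 3 at up to 0.0559) and fell by 0.33 ± 0.08 with PTUPB (adjusted p = 0.0201, lost without PDGF-BB+PTUPB replicate 1 or 2 at up to 0.088). The isomerase Ppie rose by 0.52 ± 0.14 (adjusted p = 0.0169, lost without Control replicate 1 or 3 at up to 0.0563). The falls of Cwc15 (0.36 ± 0.10, adjusted p = 0.0259) and Ppie (0.46 ± 0.14, adjusted p = 0.0458) with PTUPB were both lost without PDGF-BB+PTUPB replicate 1 or 2 or PDGF-BB replicate 1, the first also without PDGF-BB+PTUPB replicate 3 and the other also without PDGF-BB replicate 3 or Control replicate 1 or 3, at up to 0.103 and 0.165. Among 7 helicases Ddx39a alone was called, 14.3% of them, beside the 17.3% of all genes that rose with PDGF-BB and 10% that fell with PTUPB. Ddx39a, a DEAD-box protein close to the export and splicing helicase Ddx39b, had 17.9, 17.3 and 18.2 in PDGF-BB+PTUPB libraries, 38.3, 34.8 and 45.9 in PDGF-BB libraries and 18.5, 15.3 and 17.9 in Control libraries. Its PDGF-BB+PTUPB and Control libraries overlapped, and its log2 fold changes were 1.20 ± 0.11 (adjusted p = 5.72e-05) and -1.16 ± 0.11 (adjusted p = 0.000569).

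**Figure D3:**
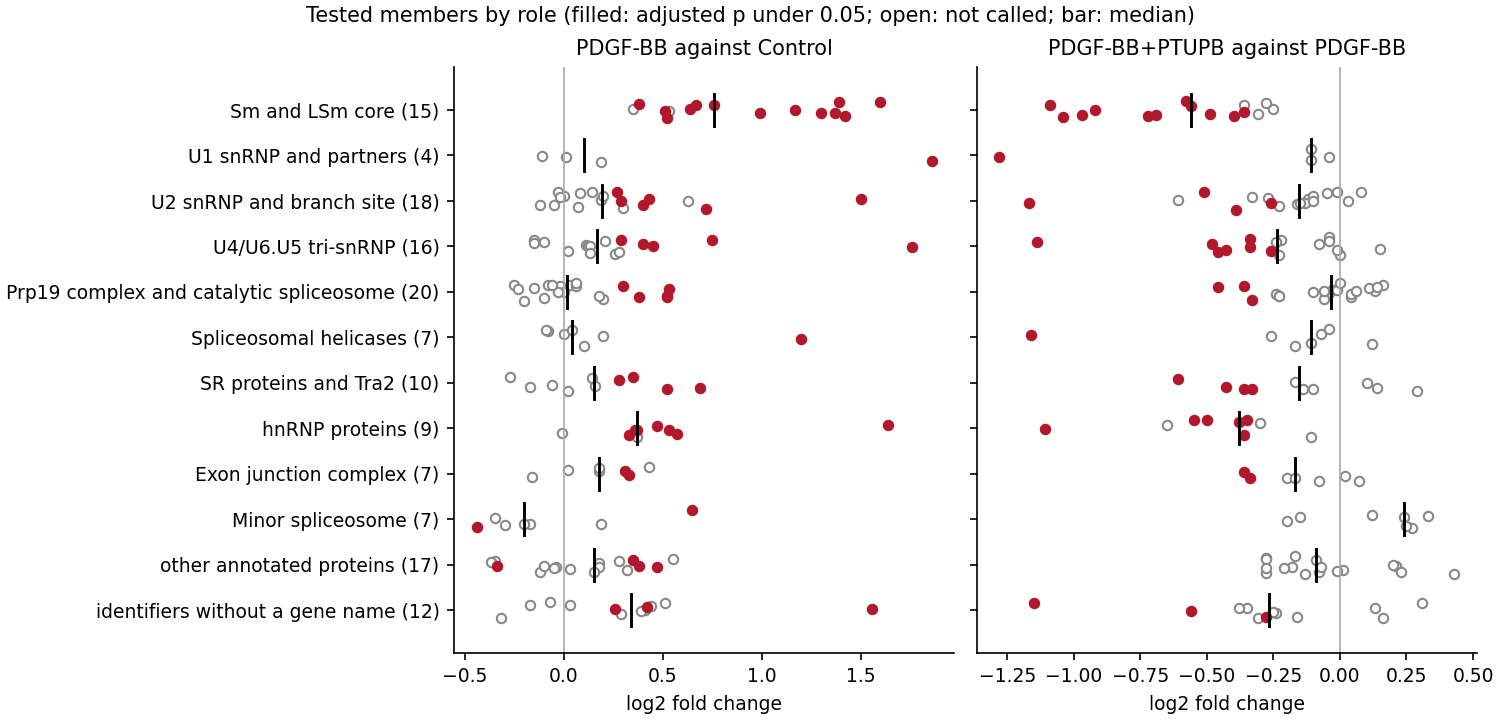
log2 fold changes of the tested genes of each role class with at least 4 of them (number in brackets), PDGF-BB against Control on the left and PDGF-BB+PTUPB against PDGF-BB on the right. Filled points passed an edgeR adjusted p under 0.05, open points did not, and bars are class medians; the Sm and LSm median is 0.76 on the left and -0.56 on the right, and the Prp19 medians are 0.02 and -0.04.

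SR proteins, which bind exonic enhancers through RNA recognition motifs and contact the spliceosome through serine and arginine repeats, divided. With PDGF-BB 4 of 10 rose (40%, beside 17.3% of all genes) and 0 fell (median 0.15). With PTUPB 4 fell (40%, beside 10% of all genes) and 0 rose (median -0.15). Srsf2 had 84.8, 81.2 and 82.9 in PDGF-BB+PTUPB libraries, 119, 124 and 137 in PDGF-BB libraries and 90.8, 67.0 and 78.2 in Control libraries. All PDGF-BB libraries exceeded the others, and the PDGF-BB+PTUPB libraries lay inside the range of Control. Srsf2 rose by 0.69 ± 0.11 (adjusted p = 0.000862) and fell by 0.61 ± 0.11 (adjusted p = 0.00437). Srsf7 rose by 0.52 ± 0.10, Srsf3 by 0.35 ± 0.07 and Srsf1 by 0.28 ± 0.08 (adjusted p = 0.00284, 0.00451 and 0.0172). The rise of Srsf1 was lost without PDGF-BB replicate 2 or Control replicate 3, at up to 0.0684. With PTUPB Srsf3 fell by 0.43 ± 0.07 (adjusted p = 0.0039). Srsf7 and Srsf1 fell by 0.36 ± 0.10 and 0.33 ± 0.08 (adjusted p = 0.0293 and 0.0155), calls that were lost for Srsf7 without PDGF-BB+PTUPB replicate 1 or 2 or PDGF-BB replicate 1 or 3 (up to 0.117) and for Srsf1 without PDGF-BB+PTUPB replicate 2 or 3 (up to 0.0684).

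Srsf5 had the highest level per length of the 10 SR genes in PDGF-BB+PTUPB and Control cells, and its values lay the opposite way. It had 143, 134 and 130 in PDGF-BB+PTUPB libraries, 112, 114 and 106 in PDGF-BB libraries and 121, 155 and 125 in Control libraries. The PDGF-BB libraries were below all others, but the differences did not pass the threshold, at -0.27 ± 0.10 against Control (adjusted p = 0.0548) and 0.29 ± 0.10 with PTUPB (adjusted p = 0.0619). They passed it with DESeq2 (adjusted p = 0.0454 and 0.044), the difference from Control also without Control replicate 1 (adjusted p = 0.0385). The difference with PTUPB stayed uncalled in 16 of the 20 alternatives, with adjusted p-values from 0.0102 to 0.2 over all of them. It passed among others without Control replicate 2 (adjusted p = 0.0131). Of the SR-related coactivators, Srrm1 was not called, and Srrm2, the large SRm300 protein, had 49.9, 45.7 and 45.8 in PDGF-BB+PTUPB libraries, 40.2, 48.6 and 28.9 in PDGF-BB libraries and 66.3, 44.4 and 61.0 in Control libraries. Its groups overlapped, and its fall of 0.54 ± 0.18 with PDGF-BB (adjusted p = 0.0455) was lost without any PDGF-BB+PTUPB library, PDGF-BB replicate 1 or 3 or Control replicate 1 or 3, at up to 0.151. Of 9 tested genes of the listed SR protein kinases, edgeR called 0 in either comparison. At an unadjusted p under 0.05, 1 was higher with PDGF-BB and 2 were higher with PTUPB, DESeq2 called 0, and limma called 1 higher with PDGF-BB.

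The hnRNPs are abundant nuclear proteins that coat nascent transcripts. With PDGF-BB 7 of 9 rose (77.8%, beside 17.3% of all genes) and 0 fell (median 0.37). With PTUPB 6 of 9 fell (66.7%, beside 10% of all genes) and 0 rose (median -0.38). The hnRNP genes summed to 1615, 1634 and 1788 CPM in PDGF-BB+PTUPB libraries, 2436, 2405 and 2498 CPM in PDGF-BB libraries and 1580, 1641 and 1473 CPM in Control libraries. Of the difference in the summed CPM of all 205 genes between PDGF-BB and Control, 1695 CPM, the 9 hnRNP genes made up 52%.

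Hnrnpa1 (ENSRNOG00000036839), which competes with SR proteins and shuttles to the cytoplasm, made up 24.5% of that difference alone, or 415 CPM. Its TMM-scaled FPKM was 124, 140 and 172 in PDGF-BB+PTUPB libraries, 321, 296 and 323 in PDGF-BB libraries and 99.2, 114 and 88.0 in Control libraries. The 3 groups did not overlap, and PDGF-BB+PTUPB lay between the others, closer to Control. The log2 fold change was 1.64 ± 0.13 with PDGF-BB (edgeR adjusted p = 2.16e-05) and -1.11 ± 0.13 with PTUPB (adjusted p = 0.000863), and both calls held under all 20 alternatives, at adjusted p-values of up to 0.000247 and 0.00659. Against Control the PDGF-BB+PTUPB cells were 0.53 ± 0.13 higher without passing the threshold (adjusted p = 0.0683). That difference stayed uncalled in 15 of the 20 alternatives. Among the settings in which it passed were those without PDGF-BB+PTUPB replicate 1 (0.64, adjusted p = 0.0374), without Control replicate 2 (0.63, adjusted p = 0.0378) and with DESeq2 (adjusted p = 0.0041). Ranked by level per length among the 145 genes, Hnrnpa1 was number 3 in PDGF-BB+PTUPB cells, 2 in PDGF-BB cells and 5 in Control cells. AABR07015006.1, an unnamed identifier that the deposited table describes as similar to hnRNP A1, moved alike (1.56 and -1.15, adjusted p = 0.000238 and 0.00351), and reads of Hnrnpa1 could have been divided between them.

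Hnrnpa2b1, its close relative, had 231, 202 and 229 in PDGF-BB+PTUPB libraries, 337, 328 and 306 in PDGF-BB libraries and 221, 226 and 207 in Control libraries. PDGF-BB was above both other groups, which overlapped, and the log2 fold changes were 0.57 ± 0.08 (adjusted p = 0.000425) and -0.55 ± 0.08 (adjusted p = 0.00199). Hnrnpa3 rose by 0.53 ± 0.11 (adjusted p = 0.00406) and fell by 0.50 ± 0.11 (adjusted p = 0.0116, 0.0582 without PDGF-BB+PTUPB replicate 1), and Hnrnpr rose by 0.33 ± 0.08 (adjusted p = 0.00911) and fell by 0.35 ± 0.08 (adjusted p = 0.0137, 0.0632 without PDGF-BB+PTUPB replicate 2). Hnrnpk, a KH-domain protein, averaged 187 ± 6.84 in PDGF-BB+PTUPB cells, 243 ± 5.74 in PDGF-BB cells and 188 ± 5.58 in Control cells, rose by 0.37 ± 0.07 (adjusted p = 0.00204) and fell by 0.38 ± 0.07 (adjusted p = 0.00453). Ptbp1, the polypyrimidine tract binding protein, had 72.6, 75.6 and 78.0 in PDGF-BB+PTUPB libraries, 88.2, 91.5 and 111 in PDGF-BB libraries and 79.6, 76.1 and 71.4 in Control libraries. It rose by 0.36 ± 0.09 (adjusted p = 0.015, lost without Control replicate 3 at up to 0.0624) and fell by 0.36 ± 0.09 with PTUPB (adjusted p = 0.0244, lost without any of the PDGF-BB+PTUPB libraries at up to 0.097). Pcbp2, a poly(C)-binding protein, averaged 76.8 ± 4.35 in PDGF-BB+PTUPB cells, 82.9 ± 6.78 in PDGF-BB cells and 60.0 ± 6.3 in Control cells, rose by 0.47 with PDGF-BB (adjusted p = 0.00426) and was not called with PTUPB (-0.11, adjusted p = 0.463). Its difference between PDGF-BB+PTUPB and Control, 0.36, did not pass in the full fit (adjusted p = 0.107). Among the settings in which it passed were DESeq2 (adjusted p = 0.0263) and the fit without Control replicate 2 (0.45, adjusted p = 0.0339). It stayed uncalled in 17 of the 20 alternatives, with adjusted p-values from 0.00345 to 0.404 over all of them.

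The exon junction complex marks spliced mRNA upstream of each exon boundary. Of its 7 tested genes 2 rose with PDGF-BB (28.6%, beside 17.3% of all genes) and 0 fell, and 2 fell with PTUPB (28.6%, beside 10%) and 0 rose. These were Magoh (0.33 ± 0.10 and -0.36 ± 0.10, adjusted p = 0.0234 and 0.0281) and its partner Rbm8a (0.31 ± 0.10 and -0.34 ± 0.10, adjusted p = 0.0418 and 0.0489), and all 4 calls were lost when PDGF-BB replicate 1 or 3 was left out, at up to 0.114. The falls of both genes and the rise of Rbm8a were also lost without each PDGF-BB+PTUPB library (up to 0.157), both rises without Control replicate 1 or 3 (up to 0.137) and the fall of Rbm8a without Control replicate 3 (0.0718). The helicase Eif4a3 of the same core was not called.

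The minor spliceosome, which removes the rare U12-type introns, had 7 tested genes with the term. With PDGF-BB 1 of 7 rose and 1 fell (median -0.20), 14.3% each, below the 17.3% and 15.8% of all genes. With PTUPB 0 rose and 0 fell by edgeR (median 0.24, with 1 higher and 0 lower at an unadjusted p under 0.05 and 0 called by DESeq2 or limma). The median with PTUPB was 0.02 without PDGF-BB replicate 3. The 4 further genes of this class without the term had medians of 0.19 with PDGF-BB (-0.05 to 0.27) and -0.05 with PTUPB (-0.10 to -0.01). Snrnp25, a protein of the U11/U12 particle, had 12.8, 12.9 and 12.6 in PDGF-BB+PTUPB libraries, 14.0, 11.6 and 16.9 in PDGF-BB libraries and 8.96, 10.6 and 7.52 in Control libraries. It rose by 0.65 ± 0.17 (adjusted p = 0.0153, lost without PDGF-BB replicate 3 or Control replicate 3 at up to 0.059) and was not called with PTUPB (-0.15, adjusted p = 0.582). Zrsr1, related to the small U2AF subunit, had 10.2, 11.1 and 9.83 in PDGF-BB+PTUPB libraries, 9.33, 8.63 and 6.80 in PDGF-BB libraries and 9.45, 12.4 and 11.8 in Control libraries, and fell by 0.44 ± 0.14 (adjusted p = 0.0371). That call was lost when any library but PDGF-BB replicate 1 or Control replicate 1 was left out, at up to 0.108, and was at 0.164 without PDGF-BB replicate 3 and Control replicate 2 together.

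Of 17 tested genes with the term but no place in these classes, such as RNA polymerase II subunits and m6A methyltransferase genes, 3 rose and 1 fell with PDGF-BB and 0 were called with PTUPB by edgeR, where 1 was higher and 3 lower at an unadjusted p under 0.05 and DESeq2 and limma called 0. The share that rose, 17.6%, was near the 17.3% of all genes tested. The gene that fell was Ppip5k1, an inositol phosphate kinase (-0.34 ± 0.11, adjusted p = 0.043), a call lost without PDGF-BB replicate 1, 2 or 3, Control replicate 1 or 3 or any of the PDGF-BB+PTUPB libraries, at up to 0.162. Of 12 tested identifiers without a gene name, 3 rose with PDGF-BB (25%, beside 17.3% of all genes) and 3 fell with PTUPB (25%, beside 10% of all genes).

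Splicing proteins listed by role but annotated without the term were read in the same fits. Over all genes tested, 17.3% rose and 15.8% fell with PDGF-BB, and 8.28% rose and 10% fell with PTUPB. Of 21 further hnRNP genes tested, 9 rose and 0 fell with PDGF-BB, and 7 fell and 0 rose with PTUPB. Hnrnpl, which binds CA repeats, averaged 126 ± 6.36 in PDGF-BB+PTUPB cells, 204 ± 24.0 in PDGF-BB cells and 116 ± 4.33 in Control cells (0.82 ± 0.09 and -0.69 ± 0.09, adjusted p = 0.000132 and 0.00141). Rbmx, hnRNP G, changed by 1.04 ± 0.12 and -0.78 ± 0.12 (adjusted p = 0.000186 and 0.00281), and Hnrnpm by 0.65 ± 0.08 and -0.53 ± 0.08 (adjusted p = 0.000203 and 0.0022). Of 5 further genes of the exon junction class 2 rose with PDGF-BB and 2 fell with PTUPB. Alyref, an mRNA export adaptor, rose by 0.88 ± 0.16 (adjusted p = 0.00225) and fell by 0.71 ± 0.16 (adjusted p = 0.013), and Sap18 rose by 0.72 ± 0.12 (adjusted p = 0.00156) and fell by 0.50 ± 0.12 (adjusted p = 0.0184, lost without PDGF-BB+PTUPB replicate 1 or 2 at up to 0.0802). In the tri-snRNP class Snrnp40, a U5 protein, rose by 0.44 ± 0.10 (adjusted p = 0.00725), the 1 of 8 that rose. Of 23 further genes of the Prp19 class 3 rose, among them the isomerase Ppil3 (0.56 ± 0.13, adjusted p = 0.00959), and 1 fell (median -0.02), which was Prpf18 (-0.35 ± 0.10, adjusted p = 0.0257, lost without Control replicate 1 or 2 at up to 0.0768). With PTUPB 1 of these 23 fell. Of 8 further helicases 2 rose and 1 fell with PDGF-BB (median -0.05) and 1 rose with PTUPB, and of 19 SR-related cofactors 1 rose and 2 fell with PDGF-BB (median -0.10) and 1 rose and 1 fell with PTUPB. Of 6 further U1 genes, 6 U2 genes and 2 SR proteins 1 each rose with PDGF-BB. The shares that rose among the U1 and U2 genes (16.7% each), the tri-snRNP class (12.5%) and the Prp19 class (13%) were near or below the 17.3% of all genes. Of 19 genes for snRNP assembly, 8 rose and 1 fell with PDGF-BB, and 1 rose and 2 fell with PTUPB. Gemin6, of the SMN complex that loads Sm rings, rose by 1.13 ± 0.19 (adjusted p = 0.00166) and was not called with PTUPB (-0.33 ± 0.19, adjusted p = 0.252). Fbl, fibrillarin, which methylates RNAs guided by small nucleolar RNAs, rose by 0.69 ± 0.11 (adjusted p = 0.00113) and fell by 0.68 ± 0.11 (adjusted p = 0.00326). Gemin8, of the same complex as Gemin6, rose by 0.58 ± 0.14 (adjusted p = 0.00939). Tgs1, which hypermethylates the cap of snRNAs, fell by 0.35 ± 0.09 (adjusted p = 0.0153, 0.0541 with limma on log2(FPKM + 1) and 0.076 with only the 2 groups compared) and rose by 0.32 ± 0.09 with PTUPB (adjusted p = 0.0352), the rise being lost when any PDGF-BB+PTUPB library, PDGF-BB replicate 2 or 3 or Control replicate 3 was left out, at up to 0.114.

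Of 26 tested tissue-type regulators without the term, 8 rose (30.8%, beside 17.3% of all genes) and 2 fell (7.69%, beside 15.8%) with PDGF-BB. With PTUPB 6 fell (23.1%, beside 10% of all genes) and 0 rose. Ewsr1, an RNA-binding protein, changed by 0.89 ± 0.19 and -0.97 ± 0.19 (adjusted p = 0.00496 and 0.00716). Rbm39, which is not one of these 26 and was counted above among the SR-related cofactors, rose by 0.63 ± 0.22 (adjusted p = 0.047) and fell by 0.70 ± 0.22 (adjusted p = 0.0496). Both calls were lost when any library but PDGF-BB replicate 1 or 2 was left out, at up to 0.109 and 0.131. Without PDGF-BB replicate 3 its rise was 0.27. Khdrbs1, the signalling target Sam68, rose by 0.47 ± 0.08 (adjusted p = 0.00114), and its relative Khdrbs3 by 0.81 ± 0.16 (adjusted p = 0.00304). Rbpms2 rose by 0.59 ± 0.11 (adjusted p = 0.00263), while its paralogue Rbpms fell. The genes that fell were Rbm15b (-0.50 ± 0.13, adjusted p = 0.0126) and Rbpms. Rbpms, an RNA-binding protein known in rat smooth muscle to promote the splicing pattern of contractile cells, had 75.1, 60.7 and 56.8 in PDGF-BB+PTUPB libraries, 52.6, 50.0 and 56.9 in PDGF-BB libraries and 69.6, 78.9 and 73.1 in Control libraries. It fell by 0.47 ± 0.11 with PDGF-BB (adjusted p = 0.00835) and was not called with PTUPB (0.27 ± 0.11, adjusted p = 0.119), where replicates of the groups overlapped. Of the remaining genes that moved against the majority, Ddx17, a DEAD-box helicase, averaged 50.3 ± 0.752 in PDGF-BB+PTUPB cells, 38.6 ± 2.37 in PDGF-BB cells and 53.1 ± 0.896 in Control cells, falling by 0.46 ± 0.07 (adjusted p = 0.000636) and rising by 0.38 ± 0.07 with PTUPB (adjusted p = 0.00468). Sugp2 fell by 0.72 ± 0.11 (adjusted p = 0.00108) and rose by 0.48 ± 0.11 with PTUPB (adjusted p = 0.0175, lost without PDGF-BB+PTUPB replicate 1 or 2 or PDGF-BB replicate 2 at up to 0.0791).

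The changes ran with gene length. Across the 145 tested genes the log2 fold change under PDGF-BB ran with exonic length at a Spearman rho of -0.543, and the same correlation was -0.292 across all 11197 genes. With PTUPB before PDGF-BB it was 0.385 against 0.202 for all genes. For PDGF-BB+PTUPB against Control it was -0.600 against -0.300 for all genes, and -0.679 against -0.404 without PDGF-BB replicate 3 and Control replicate 2. In the full fit of PDGF-BB+PTUPB against Control, the median log2 fold change was 0.17 for splicing genes under 1000 bases. It was -0.06 for those of 3000 bases and over. The medians of all genes of these lengths were 0.09 and -0.07. These are correlations across genes of the same libraries, which are not independent. Of genes under 1000 bases, 17 of 33 rose with PDGF-BB, where 22.8% of all genes of that length did. Of those from 1000 to under 3000 bases 30 of 77 rose, beside 20.6%, and of those of 3000 bases and over 5 of 35 rose, beside 10.5%. With PDGF-BB replicate 3 and Control replicate 2 both left out, rho was -0.540 under PDGF-BB and 0.221 with PTUPB, where it was 0.069 over all genes. Without PDGF-BB replicate 3 alone the value with PTUPB was 0.222, and the part of length in the differences between classes was not tested.

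**Figure D4:**
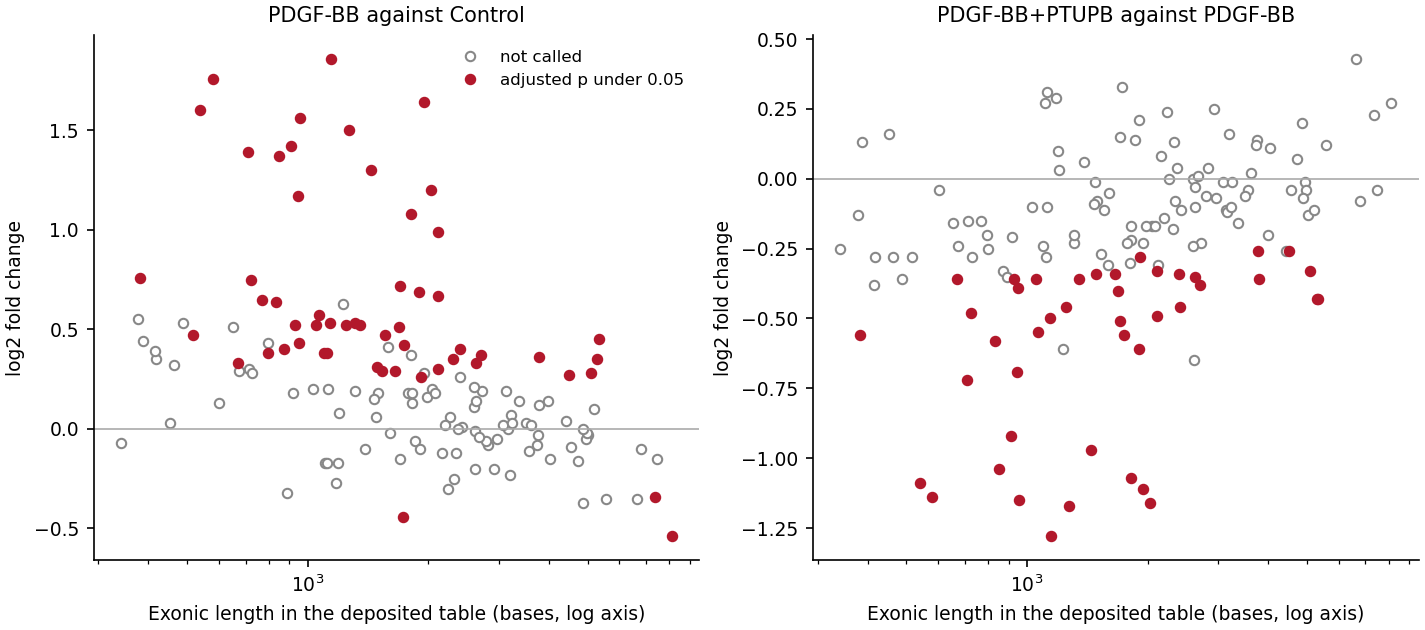
log2 fold change of each tested splicing gene against its exonic length in bases (log axis), PDGF-BB against Control on the left and PDGF-BB+PTUPB against PDGF-BB on the right. Filled points passed an edgeR adjusted p under 0.05 and open points did not; most filled points on the left lie under 3000 bases, and 5 of 35 genes of at least that length rose.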

How the data were processed

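RNA-seq was measured in 9 libraries, 3 per group, and groups were taken from the labels. Reads were trimmed (cutadapt 1.9.1), aligned (HISAT2 2.0.1) and assigned to genes (HTSeq 0.6.1), per the submitters' processing notes. The deposited file gives an expected count per gene and library, and 978 genes hold a value that is not whole, which leaves the counting step in doubt. The same file gives the authors' FPKM per gene, which 100% of the recomputed values matched within 0.006. The notes name a mouse build while the identifiers are rat Ensembl identifiers, so no coordinates of that build are given. The strand setting is not given in the sources used here.

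Counts were rounded and tested with edgeR 4.0.16 (R 4.3.3, quasi-likelihood test, TMM scaling, group as the sole term, 9 libraries in 1 fit, 6 residual degrees of freedom), with Benjamini-Hochberg adjustment over 11197 genes at 1 FPKM or more in 3 or more libraries. Genes were called at an adjusted p under 0.05. Library totals were 12729187 to 16911050, and 3 counts correspond to 0.177 to 0.236 CPM. Levels are FPKM divided by TMM factors (0.963 to 1.038), as mean ± SD (n = 3), and log2 fold changes carry SE. Alternatives were other scaling, DESeq2 1.42.0, limma 3.58.1 on log2(FPKM + 1) or log2(FPKM + 0.1), other filters, a replicate block and leaving out libraries. The members and lists were chosen with earlier results of these data known. Named genes are drawn from the 6 largest rises and falls in each comparison with a mean FPKM of at least 2 and groups that do not overlap, up to 3 called genes per role class (or the 2 most abundant), 14 core genes listed by name, and up to 3 called per class without the term. Ppip5k1, Hnrnpa3, Hnrnpr, Pcbp2, Snrpn, Snurf, Snrnp200, AABR07015006.1, Rbpms, Rbm15b and the genes listed as untested were named after their values were seen. Some named genes are not reported here.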

Additional observations from a re-analysis of the deposited data

How the results depend on the processing

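With PDGF-BB 38 to 63 splicing genes rose under the 20 alternatives. The 3 that fell were 0 with library totals, all 3 limma fits, only the 2 groups compared and the replicate block, and 0 to 3 with 1 library left out. With PTUPB against PDGF-BB the 43 that fell were 20 to 46 with 1 library left out, and the 0 that rose were 1 with DESeq2 and with only the 2 groups compared, 2 without the pair PDGF-BB replicate 3 and Control replicate 2, and 0 to 1 with 1 library left out. Over all genes, 2048 calls became 1002 to 2463 with 1 library left out. For PDGF-BB+PTUPB against Control the 1 gene that was higher became 4 with DESeq2, 2 with no filter, 0 with the replicate block, 11 without the pair of libraries and 0 to 4 with 1 library left out, and the 0 that were lower became 4 without the pair and 0 to 1. Over all genes, 247 calls became 444 with DESeq2, 1345 without the pair and 93 to 340 with 1 left out. The causes were not tested, beyond the smaller number of libraries where some were left out. Library totals moved the split of all calls under PDGF-BB to 2410 higher and 1350 lower, beside 1942 and 1772, and with PTUPB to 760 and 1414, beside 927 and 1121.

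Same-numbered libraries did not deviate together (correlations of -0.266 to 0.185), so the labels' numbers were not taken as a pairing. With the replicate block 49 splicing genes rose with PDGF-BB and 34 fell with PTUPB.

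All changes of sign were in genes that were not called. For PDGF-BB against Control, Sf3b1 was 0.03 with library totals, 0.13 without the pair and -0.16 to 0.13 with 1 library left out, and Snrnp70 was -0.02 without the pair and -0.01 to 0.05. With PTUPB against PDGF-BB, Sf3b1 was 0.01 with the replicate block and -0.18 to 0.10 with 1 left out, and Snurf -0.18 to 0.03. For PDGF-BB+PTUPB against Control, library totals and the 3 limma fits each gave 0.02 for Hnrnpk and Ptbp1 and 0.01 for Hnrnpr and Zcrb1, and only the 2 groups gave 0.00 for Ptbp1. Without the pair Ddx39a and Srsf2 were -0.03, Hnrnpk 0.01 and Zcrb1 0.05. With 1 library left out Hnrnpa2b1 was -0.02 to 0.08, Hnrnpk -0.05 to 0.01, Ptbp1 -0.05 to 0.03, Srsf5 -0.04 to 0.14, Hnrnpa3 -0.01 to 0.12, Hnrnpr -0.07 to 0.05, Dhx40 -0.00 to 0.09, Rnps1 -0.03 to 0.05, Zcrb1 -0.07 to 0.05, Snrnp35 -0.01 to 0.26, Snrpd1 -0.01 to 0.10, U2af1 -0.01 to 0.12, Ddx39a -0.03 to 0.10 and Srsf2 -0.03 to 0.19. Of the other values of single genes, 3243 kept their direction and side of the threshold, 274 lost the call and 25 gained it.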
